A study of Mus musculus with 21 samples.

Results

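Adult mice that had been exposed to valproic acid (VPA) before birth and had then been given voluntary exercise were compared with unexposed sedentary mice of the same age. The comparison rested on 3 libraries of running VPA mice and 3 control libraries, 6 of the 21 libraries of the series, and on the 13231 of 24322 gene symbols that had at least 1 FPKM in at least 3 of those 6 libraries. FPKM is a fragment count scaled by transcript length and by the number of mapped fragments of the library. All mice were Nestin-EGFP C57BL/6 mice, which carry EGFP under regulatory sequences of the nestin gene, and all were 12 weeks old. Their mothers had received methylcellulose in the control group, and VPA by mouth at 300 mg/kg/day in the running group, on embryonic days 12, 13 and 14. The dentate gyrus of the hippocampus was dissected, and its EGFP-positive cells were collected by flow cytometry. A further group of the same age, 3 libraries from VPA mice without exercise, served as the exposed sedentary reference. No group of unexposed running mice was analysed here, so prenatal VPA and running cannot be told apart in the difference between running VPA mice and controls. Nothing in the labels says whether the 3 libraries of a group came from separate animals, litters or pools, so p-values measure the spread between these libraries, which may be technical.

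Neural stem cells of the dentate gyrus persist through life in the subgranular zone, where they resemble astrocytes and carry the glial markers Gfap and Slc1a3. They give rise to dividing intermediate progenitors that express Eomes, and these give rise to newborn granule neurons that express Dcx and Neurod1. Nestin, an intermediate filament protein, marks the early part of this lineage. VPA is an anticonvulsant that also inhibits histone deacetylases, and exposure during pregnancy affects the neural precursors of the embryo. Voluntary running is widely used in rodents to increase the birth of dentate granule neurons.

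The libraries of the running group differed among themselves more than the controls did. Pearson correlations of log2(FPKM + 1) within a group were 0.876 to 0.923 among controls and 0.749 to 0.85 among running libraries, and the median SD per gene was 0.327 in controls and 0.489 in the running group. Running replicate 3 stood apart: it had the fewest genes above 0 (12019, beside 13254 to 15210 in the other 5 libraries compared), listed 1638 of the tested genes at exactly 0 (64 to 678 in the other 5) and held 27.7% of its summed FPKM in genes of small RNAs (13% to 18.4%). An exact 0 may therefore be a missed estimate and not an absent transcript. The column sums were 482753 to 574594 FPKM over the 9 libraries of this age. The deposited values are not read counts, so the sequencing depth is unknown and no counting interval was derived.

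**Figure D1:**
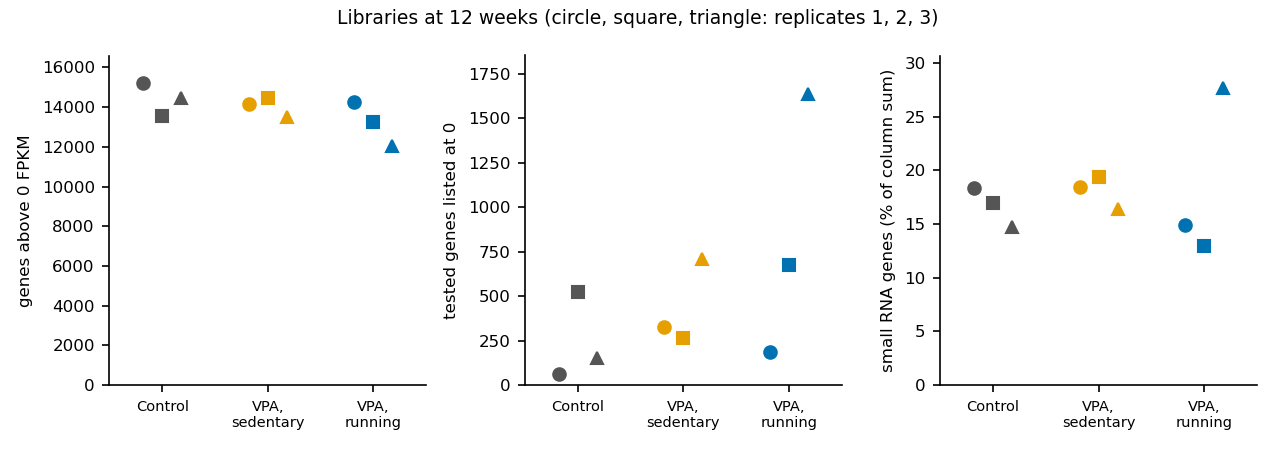
Genes above 0 FPKM, tested genes listed at 0 and the share of summed FPKM in small RNA genes (percent), each point being 1 library of the control, sedentary VPA or running VPA group at 12 weeks. Running replicate 3 (triangle) has the fewest genes above 0, the most tested genes at 0 (1638) and the largest small RNA share (27.7%).

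No single gene separated running VPA mice from controls after correction for multiple testing. In the limma fit of the 9 libraries, 0 of the 13231 genes (0%) had a Benjamini-Hochberg adjusted p under 0.05, and the smallest adjusted p was 0.344. Without adjustment, 1061 genes (8.02%) had p under 0.05, 425 of them higher (3.21%) and 636 lower (4.81%) in the running group. The 3 running libraries lay wholly above the 3 control libraries at 805 genes (6.08%) and wholly below at 954 (7.21%), without a test. With 3 libraries a group, some genes reach an unadjusted p under 0.05 or separate in this way without any group difference. How many did so here was not estimated. Of all tested genes, 44.5% had a log2 difference above 0, and the median difference of running minus control was -0.063. Removing small RNA genes and rescaling turned the balance to 928 higher and 775 lower, and leaving out running replicate 3 gave 1580 higher and 1678 lower, in a comparison of 2 against 3 libraries. Sedentary VPA against control and running against sedentary VPA also gave 0 genes (0% each) by the same fit. All genes below are therefore described by their values, and differences are given as log2(FPKM + 1), a scale that understates differences of low genes.

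Among the 30 genes named by rule, 15 in each direction with the smallest p and no overlap between running and control libraries, the sedentary VPA mean took every position relative to the other groups. Of the 15 higher genes, it lay between control and running but nearer control in 9 and nearer running in 5, and on the other side of control in 1. Of the 15 lower genes, it lay nearer control in 9, nearer running in 2, beyond running in 1 and on the other side of control in 3. The 30 genes were chosen because running and control libraries lay apart, which by itself favours a middle position of the sedentary VPA mean. The counts therefore describe these genes only. The differences of both VPA groups are measured from the same 3 control libraries, so they are set side by side and not counted as separate evidence.

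**Figure D2:**
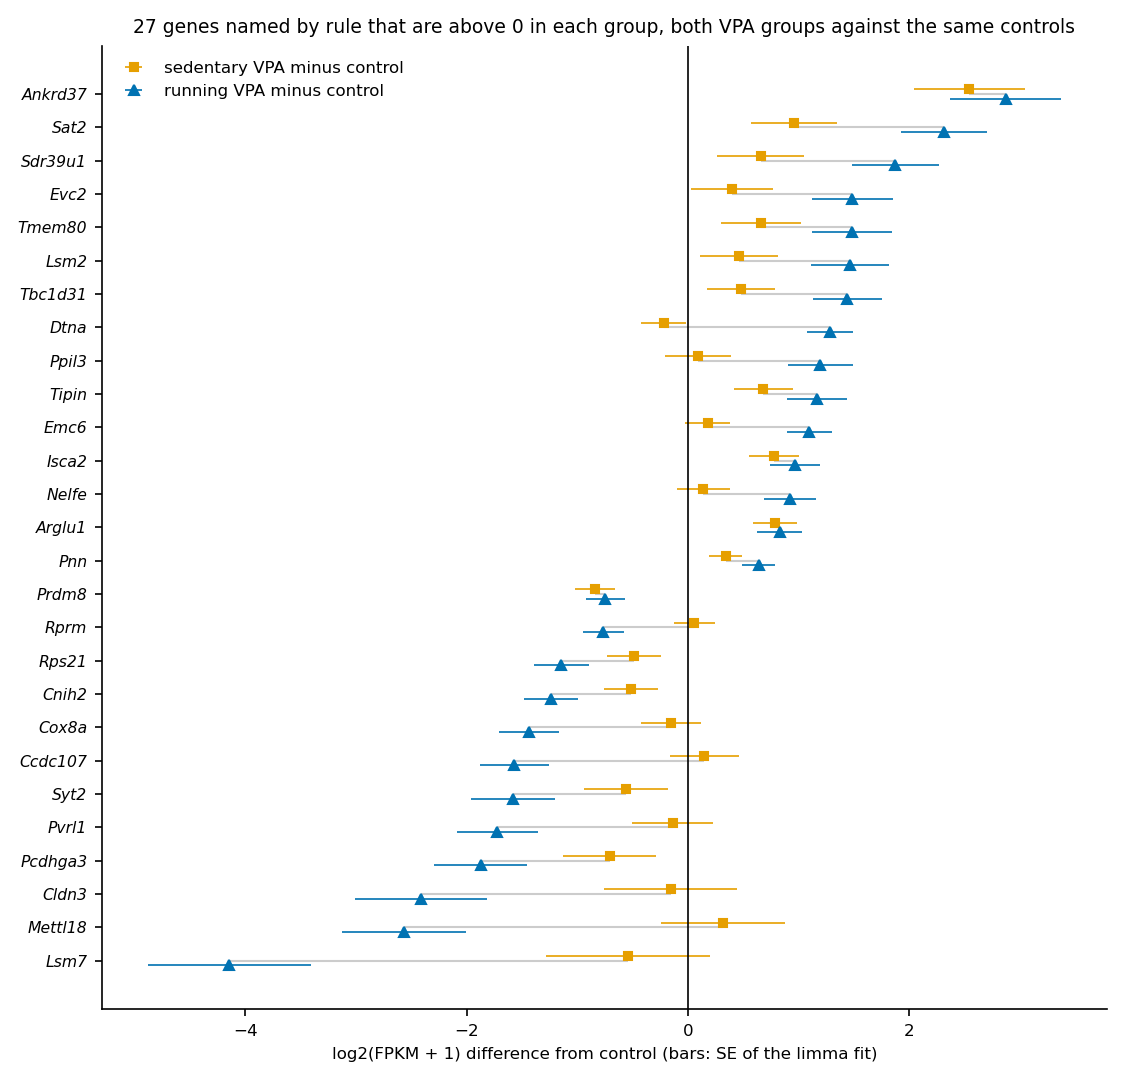
Log2(FPKM + 1) difference from control of running VPA mice (blue triangles) and of sedentary VPA mice (orange squares) for those of the 30 genes that are above 0 in at least 1 library of each group, bars being the SE of the limma fit. Ankrd37, Arglu1 and Prdm8 have nearly the same difference in both VPA groups, while Dtna, Emc6, Ccdc107 and Cox8a are away from 0 in the running group and near 0 in the sedentary one.

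Some genes stood at much the same distance from control in both VPA groups. Ankrd37, an ankyrin repeat gene known as a target of hypoxia-inducible factor (ENSMUSG00000050914.16, chr8:45996902-46005707 on the minus strand, GRCm38), was at 0.205, 0 and 0.263 FPKM in the controls and at 5.37, 5.01 and 14.5 FPKM in the running libraries. Sedentary VPA libraries had 5.01, 8.31 and 4.38 FPKM, within or near the running range and far above every control. Ankrd37 passed the filter through the running libraries alone. The log2 difference of running minus control was 2.87 (SE 0.50), adjusted p = 0.43, and that of sedentary VPA minus control was 2.54. With a pseudocount of 0.1 in place of 1, the first of these was 5.06. Prdm8, a transcriptional repressor of the PR domain family that acts in developing neural circuits (ENSMUSG00000035456.9, chr5:98167198-98188991 on the plus strand), had 60.6, 56.4 and 64.0 FPKM in controls, 33.3, 33.0 and 33.4 FPKM in sedentary VPA mice and 31.5, 40.5 and 35.1 FPKM in running VPA mice. All 6 VPA libraries were below all controls, with differences of -0.84 without running and -0.75 (SE 0.18) with it, adjusted p = 0.587 for the second. Bhlhe22, which encodes a known partner of Prdm8 and was looked up after its values were seen, had 67.2, 71.3 and 68.8 FPKM in controls, 42.1, 35.1 and 21.2 in sedentary VPA and 37.8, 66.2 and 58.9 in running VPA libraries, a difference of -0.38 for running minus control. Unlike Prdm8, it was not at the same distance in both VPA groups. Its running libraries at 66.2 and 58.9 FPKM lay above every sedentary VPA library, and the one at 37.8 lay among them.

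The promoters of Ankrd37 and Prdm8 are shown because both genes stood apart from control in both VPA groups. The 250 bases before the RefSeq transcription start (GRCm38.p6) are printed 5′ to 3′ on the gene's own strand, with capitals at ACGTG, the core letters of the hypoxia response element, searched on both strands (CACGT on the reverse). Ankrd37 (chr8:45999851-46000100, minus strand) held it 2 times, beginning 241 and 6 bases before the start, and Prdm8 (chr5:98180619-98180868, plus strand) 1 time, 66 bases before it. Among 32851 promoters of the same length, 16.6% held these letters at least 1 time, so a match alone is common. Both windows lay inside the gene spans printed above, so the start used was not the outermost annotated start of either gene.
Ankrd37: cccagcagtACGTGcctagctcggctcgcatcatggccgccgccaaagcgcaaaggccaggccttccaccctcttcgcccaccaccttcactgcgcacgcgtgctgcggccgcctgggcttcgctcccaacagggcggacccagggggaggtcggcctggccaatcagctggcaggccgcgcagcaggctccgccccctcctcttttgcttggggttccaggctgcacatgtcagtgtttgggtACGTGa
Prdm8: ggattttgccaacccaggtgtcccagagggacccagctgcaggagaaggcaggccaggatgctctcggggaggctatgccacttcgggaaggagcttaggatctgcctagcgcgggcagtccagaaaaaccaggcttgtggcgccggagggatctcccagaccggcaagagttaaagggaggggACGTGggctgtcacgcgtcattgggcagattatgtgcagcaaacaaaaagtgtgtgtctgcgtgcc

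Other genes above control in both VPA groups included genes of RNA processing and growth control. Arglu1, an arginine- and glutamate-rich protein that takes part in splicing, had 112.5, 67.5 and 88.3 FPKM in controls and 146.0, 153.5 and 169.5 FPKM in running mice. Sedentary VPA mice had 171.9, 135.8 and 149.4 FPKM, and the differences were 0.83 with running and 0.79 without. Pnn, the splicing factor pinin, had 63.7, 60.8 and 62.4 FPKM in controls, 83.6, 77.3 and 76.6 in sedentary VPA mice and 106.3, 88.5 and 98.6 in running mice, so that the 3 groups did not overlap and running mice were highest. Impact, an imprinted regulator of translation, had 22.9, 21.2 and 24.2 FPKM in controls against 33.7, 35.3 and 39.9 in sedentary and 36.3, 34.8 and 33.0 in running VPA mice. Vegfa, the angiogenic growth factor, had 84.8, 64.3 and 53.8 FPKM in controls, 110.9, 167.4 and 194.2 in sedentary VPA mice and 93.8, 101.5 and 152.5 in running mice. Its difference was 1.20 in sedentary and 0.76 in running mice, the running libraries lying above every control and overlapping the sedentary VPA libraries. Tipin, which protects replication forks, and Isca2, which assembles iron-sulfur clusters, differed from control by 1.17 and 0.97 with running and by 0.68 and 0.78 without.

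On the lower side, some neuronal and myelin genes lay below control in both VPA groups. Neurod2, a transcription factor of differentiating neurons, had 39.5, 38.0 and 39.1 FPKM in controls, 24.3, 17.4 and 21.7 in sedentary VPA mice and 11.1, 26.6 and 21.3 in running mice, differences of -0.86 and -1.03. Calb2, the calcium-binding protein calretinin of immature granule cells and some interneurons, differed by -0.55 without and -0.54 with running, and the synaptic vesicle protein gene Syp by -0.50 and -0.53. Mbp, which encodes myelin basic protein, had 81.8, 89.2 and 95.6 FPKM in controls, 43.3, 78.7 and 27.3 in sedentary VPA mice and 48.8, 41.9 and 33.0 in running mice. None of the sedentary or running values of these 4 genes reached the lowest control library. Adjusted p for running against control was 0.587 to 0.606 over these 4 genes.

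**Figure D3:**
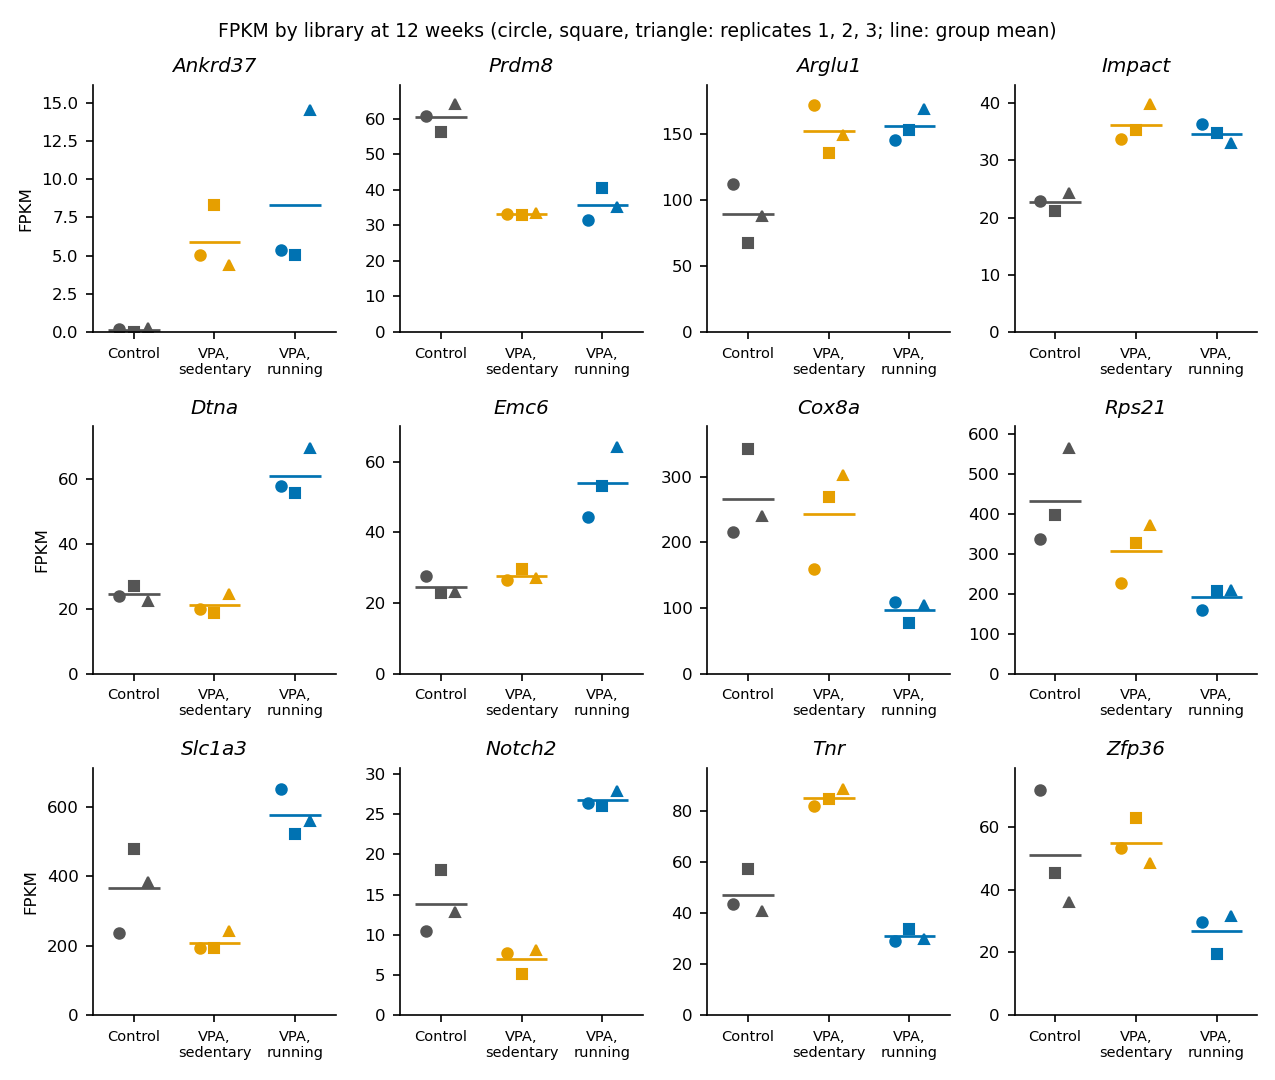
FPKM of 12 genes in each library (circle, square and triangle for replicates 1, 2 and 3) of control, sedentary VPA and running VPA mice, lines being group means. In the top row both VPA groups lie on the same side of control, in the middle row running libraries lie apart from both other groups, and in the bottom row the running group lies across control from the sedentary VPA mean, for Slc1a3 and Zfp36 with overlap of control and sedentary VPA libraries.

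Other genes stood apart in running mice while sedentary VPA libraries stayed near control or, for Sat2, lay between control and running. Dtna, which encodes dystrobrevin alpha of the dystrophin complex, had the smallest p of the 15 higher genes, with 23.8, 27.0 and 22.4 FPKM in controls, 19.8, 18.5 and 24.5 in sedentary VPA mice and 57.8, 55.6 and 69.3 in running mice. Every running library was above every library of the other groups. The running mean was 2.49-fold the control mean, a log2 difference of 1.28 (SE 0.20), adjusted p = 0.344, and running against sedentary VPA mice gave 1.4995, adjusted p = 0.053. Emc6, a subunit of the complex that inserts membrane proteins at the endoplasmic reticulum (ENSMUSG00000047260.4, chr11:73175519-73177037 on the minus strand), had 27.7, 22.8 and 23.04 FPKM in controls, 26.6, 29.5 and 27.1 in sedentary VPA and 44.3, 53.3 and 64.1 in running mice, a difference of 1.10 (SE 0.21), adjusted p = 0.506. Sat2, an acetyltransferase gene, was ordered control, sedentary VPA, running without overlap, at 6.68, 2.07 and 3.64 FPKM in controls, 10.5, 7.46 and 7.22 in sedentary VPA and 19.7, 26.2 and 22.9 in running mice. Its difference was 2.31 (SE 0.39) with running (adjusted p = 0.387) and 0.96 without.

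The rest of the 15 higher genes also had varied known roles. Lsm2, a component of the U6 small nuclear ribonucleoprotein, had 18.5, 17.3 and 17.5 FPKM in controls and 26.3, 64.6 and 76.7 in running mice, replicate 1 being close to the sedentary VPA libraries (25.7, 20.7 and 28.6). Ppil3, a spliceosomal isomerase, had 41.3, 19.8 and 35.8 FPKM in controls and 54.5, 89.4 and 76.9 in running mice, and Nelfe, a subunit of the negative elongation factor, had 21.5, 24.4 and 27.0 in controls against 41.3, 47.1 and 52.3 in running mice. The ciliary Hedgehog component Evc2 had 3.98, 3.02 and 3.48 FPKM in controls, 4.57, 4.64 and 5.50 in sedentary VPA and 9.50, 9.59 and 16.7 in running mice. Lsm7, from the same complex as Lsm2, lay on the other side, at 50.0, 108.7 and 21.5 FPKM in controls, 43.8, 29.2 and 29.3 in sedentary VPA and 7.75, 1.62 and 0 in running mice. The remaining higher genes, Sdr39u1, Tbc1d31 and Tmem80, had differences of 1.87, 1.44 and 1.48, with adjusted p = 0.587 for each.

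Among the lower genes, Cox8a, a subunit of respiratory complex IV (ENSMUSG00000035885.5, chr19:7215153-7217616 on the minus strand), had 215.7, 342.4 and 239.6 FPKM in controls and 159.1, 268.9 and 302.3 in sedentary VPA mice. Running libraries had 109.2, 76.4 and 105.1 FPKM, 2.74-fold below the control mean and below every library of the other groups, with a difference of -1.44 (SE 0.27) and adjusted p = 0.506. Rps21, a protein of the small ribosomal subunit, had 336.5, 396.4 and 563.7 FPKM in controls, 225.2, 326.3 and 370.3 in sedentary VPA and 159.3, 207.4 and 209.7 in running mice, a difference of -1.14 (SE 0.24). Ribosomal protein genes have many near-identical pseudogenes, so their assigned reads are uncertain. Fv1, a retroviral restriction gene, was listed at 0 in all 3 running libraries against 6.43, 7.79 and 13.9 FPKM in controls and 7.49, 3.69 and 3.66 in sedentary VPA mice. Icam2, an endothelial adhesion molecule, was also listed at 0 in all running libraries, against 8.18, 4.86 and 15.5 in controls and 0, 3.49 and 0 in sedentary VPA mice. Morn5 followed with 0 in all running libraries, 4.87, 11.1 and 7.12 in controls and 5.41, 0 and 0 in sedentary VPA mice, and Mettl18 had 4.53, 4.81 and 5.80 FPKM in controls, 2.34, 13.8 and 7.51 in sedentary VPA and 0, 0.0572 and 0 in running mice. Fv1, Icam2, Morn5 and Mettl18 each passed the filter through the control libraries alone. Of the tested genes, 24 were listed at 0 in all 3 running libraries, 1 in all 3 controls and 61 in all 3 sedentary VPA libraries.

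The rest of the 15 lower genes had varied known roles. Cnih2, an auxiliary protein of AMPA receptors, had 91.8, 76.2 and 105.5 FPKM in controls and 31.2, 52.7 and 32.7 in running mice, and the vesicle calcium sensor Syt2 had 14.8, 9.85 and 10.7 in controls against 3.99, 4.22 and 1.90 in running mice. Pvrl1, which encodes the adhesion molecule nectin-1, had 9.71, 12.4 and 7.32 FPKM in controls, 8.07, 10.4 and 7.63 in sedentary VPA and 2.65, 1.98 and 2.06 in running mice. The tight junction gene Cldn3 had 17.4, 15.96 and 16.6 in controls against 4.396, 5.21 and 0.0852 in running mice, and the protocadherin Pcdhga3, whose last exons are shared with the rest of its cluster and whose reads are therefore uncertain, had 10.5, 12.5 and 7.17 in controls against 2.34, 2.35 and 1.33 in running mice. Rprm, linked to arrest of the cell cycle, and Ccdc107 differed from control by -0.77 and -1.57 with running, and by 0.058 and 0.15 without.

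The neural stem cell list had a median above control in running mice and below control in sedentary VPA mice, while its summed level overlapped between running mice and controls. Of 24 tested markers, 16 were higher and 8 lower in running mice, 2 and 1 without overlap (6.08% and 7.21% over all genes), and none passed adjustment in limma. Before adjustment, 5 higher and 0 lower markers had p under 0.05, beside 3.21% and 4.81% of all genes. Summed FPKM of the list was 1514, 2506 and 1923 in controls, 1481, 1435 and 1633 in sedentary VPA and 2618, 2013 and 2307 in running mice. The median difference of the markers was 0.24 beside -0.063 over all genes, while sedentary VPA minus control had a median of -0.48. Leaving out 1 of the 6 libraries gave medians of 0.11 (without running replicate 1) to 0.43 (without running replicate 2), and 16 of 24 were higher without running replicate 3. Notch2, a receptor that keeps stem cells quiescent (ENSMUSG00000027878.11, chr3:98013527-98150361 on the plus strand), had 10.5, 18.1 and 12.9 FPKM in controls, 7.67, 5.07 and 8.09 in sedentary VPA and 26.4, 26.1 and 27.9 in running mice, with no overlap between any 2 groups. Its difference from control was 0.94 (SE 0.30) with running, adjusted p = 0.587, and -0.89 without, and running against sedentary VPA mice gave 1.83, adjusted p = 0.089. Slc1a3, the glutamate transporter of radial glia and astrocytes (ENSMUSG00000005360.14, chr15:8634124-8710764 on the minus strand), had 236.5, 478.8 and 384.5 FPKM in controls, 192.9, 192.5 and 242.6 in sedentary VPA and 651.3, 523.1 and 560.3 in running mice, a difference of 0.71 (SE 0.25). That of Slc1a3 was 0.42 without control replicate 1.

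The genes that define the sort and the lineage did not all follow. Nes itself had 10.6, 15.5 and 18.7 FPKM in controls, 12.4, 7.86 and 10.2 in sedentary VPA and 12.7, 11.2 and 8.60 in running mice, a difference of -0.41 (SE 0.33) with overlapping groups. The median of all tested genes was 14.8 to 15.1 FPKM in the control libraries. Sox2, a transcription factor of neural stem cells, had 75.7, 103.5 and 129.5 FPKM in controls, 112.0, 89.0 and 134.6 in sedentary VPA and 156.9, 119.5 and 174.3 in running mice, a difference of 0.56 (SE 0.24), and 0.35 without control replicate 1. Gfap, the glial filament protein, had 45.0, 47.1 and 48.3 FPKM in controls, 25.7, 25.5 and 44.3 in sedentary VPA and 80.9, 45.9 and 67.3 in running mice. Its difference from control, 0.42 (SE 0.27), adjusted p = 0.683, was 0.24 without running replicate 1, and running replicate 2 lay within the control range. Id4, an inhibitor of differentiation, was at 39.5, 116.0 and 50.9 FPKM in controls, 45.7, 47.7 and 24.0 in sedentary VPA and 131.3, 116.9 and 93.3 in running mice, control replicate 2 lying among the running libraries.

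Cxcr4, the receptor of the chemokine Cxcl12 that guides migrating granule neurons (ENSMUSG00000045382.6, chr1:128588199-128592293 on the minus strand), had 58.2, 45.7 and 36.9 FPKM in controls and 14.96, 30.5 and 27.2 in sedentary VPA mice. Running mice had 40.5, 66.2 and 70.8 FPKM, above every sedentary VPA library and overlapping with the controls. The difference from control was 0.31 (SE 0.32), adjusted p = 0.791, and without 1 library it ranged down to 0.15 (without control replicate 3) and up to 0.56 (without running replicate 1). Cxcl12 itself had 25.8, 61.1 and 44.8 FPKM in controls and 41.2, 35.1 and 17.4 in running mice, with overlap. Of the 15 tested genes of chemokines and migration, 0 lay apart between groups, beside 6.08% of all genes higher and 7.21% lower without overlap. With so few genes, 0 is not far from those shares. The median of the list was -0.12.

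The astrocyte list as a whole gave no direction, with 10 of 24 tested markers higher and a median of -0.062 that was above 0 after quantile normalization and with array quality weights. Leaving out 1 library gave -0.28 (without control replicate 1) to 0.18 (without control replicate 2), with 4 of 24 higher without control replicate 1. Slc1a2, the main astrocyte glutamate transporter, had 130.4, 157.4 and 152.5 FPKM in controls, 111.1, 89.3 and 96.7 in sedentary VPA and 225.3, 177.0 and 200.01 in running mice, so that no groups overlapped and the control lay in the middle. Aldh1l1, a folate enzyme used as an astrocyte marker, went the other way, at 3.68, 13.2 and 6.21 FPKM in controls and 3.28, 2.24 and 0.596 in running mice. Control replicate 1 had the lowest summed FPKM of the list among the 6 libraries, and the sums were 5095, 10190 and 7779 in controls and 8439, 7198 and 6559 in running mice.

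Most genes of the G2 and mitosis list were higher in running mice. Of 27 tested genes of G2 and mitosis, 21 were higher and 6 lower, 5 and 0 of them without overlap, beside 6.08% and 7.21% of all genes. Unadjusted p was under 0.05 for 2 higher and 0 lower ones (3.21% and 4.81% over all genes). The median difference was 0.28, and -0.47 in sedentary VPA mice, and without 1 library the first was 0.09 (without running replicate 1) to 0.52 (without control replicate 2). Without running replicate 3, 21 of 27 were higher. Smc4, a core subunit of condensin (ENSMUSG00000034349.14, chr3:69004738-69034623 on the plus strand), had 17.9, 17.8 and 17.2 FPKM in controls, 27.8, 26.0 and 14.0 in sedentary VPA and 33.4, 38.6 and 36.4 in running mice, a difference of 0.99 (SE 0.27), adjusted p = 0.587. Tpx2, a spindle assembly factor, had 6.72, 11.6 and 13.1 FPKM in controls, 8.81, 13.7 and 3.62 in sedentary VPA and 15.7, 23.3 and 35.2 in running mice. Mki67, looked up after its values were seen, had 9.62, 12.5 and 11.1 FPKM in controls, 8.17, 7.81 and 4.79 in sedentary VPA and 14.9, 12.5 and 10.4 in running mice, a difference of 0.17.

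In S phase genes the directions were mixed. Of 27 tested, 17 were higher and 10 lower, with 2 and 2 without overlap (6.08% and 7.21% over all genes), 1 and 3 at an unadjusted p under 0.05 (3.21% and 4.81% over all genes) and a median of 0.27. Pcna, the sliding clamp of DNA replication, had 72.2, 117.9 and 88.6 FPKM in controls and 136.1, 116.0 and 147.5 in running mice, while Ccne2, a cyclin of S phase entry, had 4.01, 9.12 and 3.62 in controls against 2.25, 0 and 0 in running mice. Of 14 D cyclins and CDK inhibitors, 7 were higher, and the median (-0.039) was above 0 after quantile normalization and ranged from -0.088 (without running replicate 1) to 0.12 (without running replicate 3) on leaving out 1 library. Cdkn1b, an inhibitor of cyclin-dependent kinases, had 130.9, 114.8 and 142.2 FPKM in controls and 150.2, 153.5 and 173.3 in running mice.

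Intermediate progenitor and newborn neuron markers pointed in different directions. Of 15 tested progenitor markers 9 were higher, 4 without overlap, and 1 lower without overlap, beside 6.08% and 7.21% of all genes. The median was 0.13, or 0.064 (without control replicate 3) to 0.27 (without control replicate 2) on leaving out 1 library. Tfap2c, a transcription factor of progenitors, had 3.63, 3.29 and 13.1 FPKM in controls and 13.9, 10.5 and 25.5 in running mice, and the stress-response gene Gadd45g had 130.7, 88.7 and 117.4 in controls against 135.2, 163.9 and 152.3 in running mice. Eomes, chosen after its values were seen, had 104.6, 106.0 and 112.0 FPKM in controls, 127.3, 67.2 and 57.5 in sedentary VPA and 126.7, 149.3 and 150.7 in running mice. Of 26 newborn granule neuron markers 23 were lower and 3 higher, 6 and 1 without overlap (7.21% and 6.08% over all genes). Their median was -0.20, near 0 without running replicate 1, the values without 1 library being -0.28 (without running replicate 2) to -0.018 (without running replicate 1). Without running replicate 3, 5 of 26 were higher. Among the 26, 2 lower and 1 higher had an unadjusted p under 0.05 (4.81% and 3.21% over all genes). Sedentary VPA mice lay further below control, with a list median of -0.41. Neurod6 was an exception at 22.8, 17.8 and 31.3 FPKM in controls and 30.8, 59.0 and 56.9 in running mice, with replicate 1 inside the control range. Dcx, chosen after its values were seen, differed by -0.10, or 0.022 without running replicate 1, with 119.0, 98.9 and 101.0 FPKM in controls and 83.9, 104.5 and 110.6 in running mice.

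**Figure D4:**
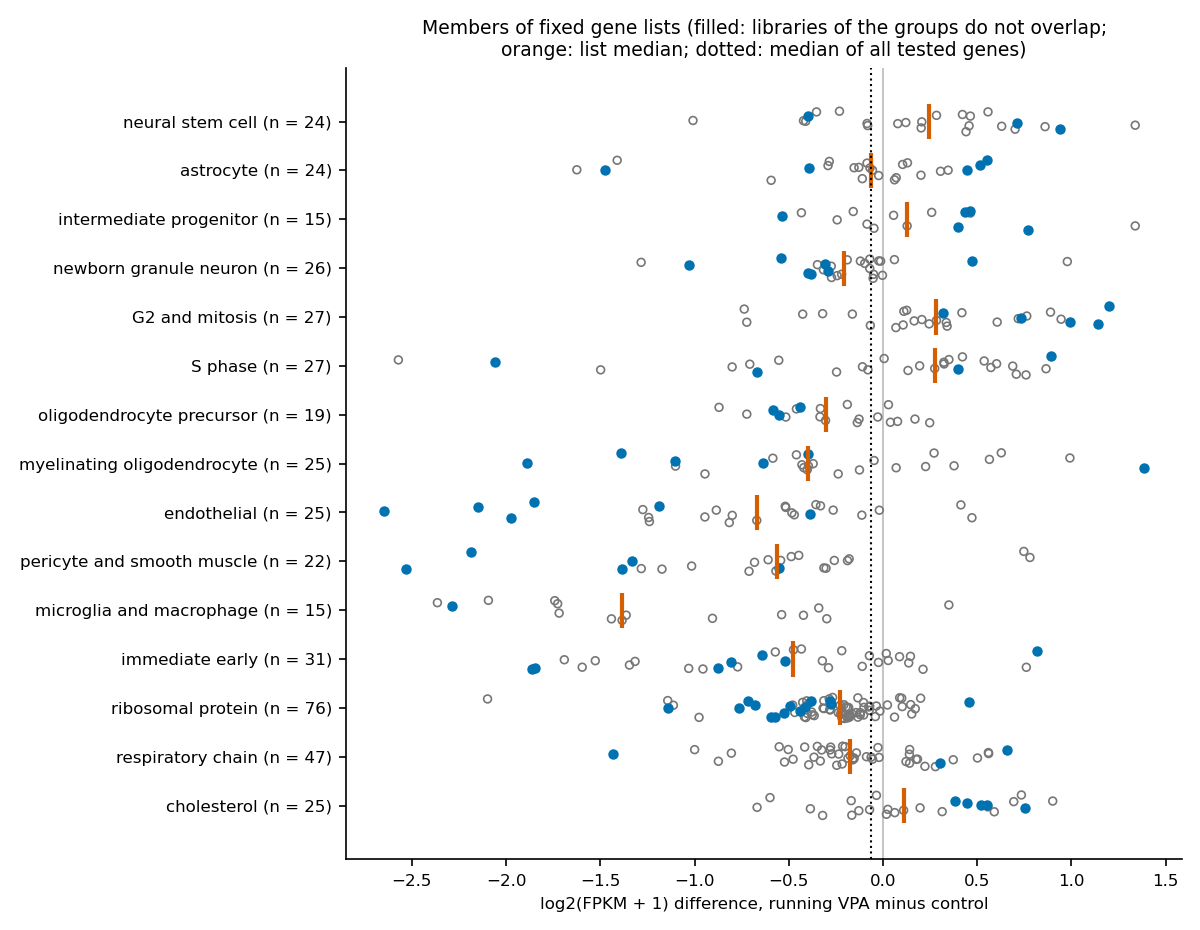
Log2(FPKM + 1) difference of running VPA minus control for each tested member of 15 gene lists, filled where the 3 running and 3 control libraries do not overlap, with list medians (orange) and the median of all tested genes (dotted, -0.063). Members of the G2 and mitosis list lie mostly above 0, and those of the endothelial, pericyte, microglia and immediate early lists mostly below 0.

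Oligodendrocyte precursor genes stood on opposite sides of control in the VPA groups. Of 19 tested markers 14 were lower in running mice than in controls, 3 without overlap and 0 higher without overlap, beside 7.21% and 6.08% of all genes. Their median was -0.30 in running and 0.94 in sedentary VPA mice. Without 1 library the running median was -0.42 (without control replicate 3) to -0.12 (without running replicate 2), and 2 of 19 markers were higher without running replicate 3. Unadjusted p was under 0.05 for 3 lower and 0 higher markers (4.81% and 3.21% over all genes). Tnr, a matrix glycoprotein of the oligodendrocyte lineage and of perineuronal nets (ENSMUSG00000015829.13, chr1:159523769-159931729 on the plus strand), had 43.4, 57.3 and 40.8 FPKM in controls, 81.7, 84.5 and 88.5 in sedentary VPA and 29.1, 33.5 and 29.9 in running mice, and no groups overlapped. Its difference from control was -0.58 (SE 0.18) with running, adjusted p = 0.587, and 0.85 without, and running against sedentary VPA mice gave -1.43, adjusted p = 0.052. Cspg4, the NG2 proteoglycan of precursors and pericytes, had 68.2, 88.2 and 62.1 FPKM in controls, 78.2, 101.9 and 121.6 in sedentary VPA and 51.7, 45.2 and 49.6 in running mice. Summed FPKM of the list was 2189, 2921 and 1959 in controls, 3578, 4410 and 5265 in sedentary VPA and 1986, 1688 and 2265 in running mice, so running replicates 1 and 3 were inside the control range. In sorted bulk cells, fewer cells of a type and less RNA per cell cannot be told apart.

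Myelin genes had medians below control in both VPA groups, with 17 of 25 markers lower in running mice, 5 without overlap beside 1 higher (7.21% and 6.08% over all genes), and medians of -0.40 with and -0.42 without running. Without running replicate 3, 10 of 25 were higher, and the running median without 1 library was -0.37 (without control replicate 1) to -0.21 (without running replicate 1). Among the 25, 3 lower and 1 higher had an unadjusted p under 0.05 (4.81% and 3.21% over all genes). Myrf, the transcription factor of myelination, had 6.56, 4.37 and 8.12 FPKM in controls, 11.1, 8.38 and 6.41 in sedentary VPA and 4.29, 0.799 and 1.16 in running mice. Summed FPKM of the list was 1062, 971.5 and 1320 in controls and 819.6, 1041 and 752.7 in running mice, with overlap.

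Immediate early genes, which are switched on within minutes by neuronal activity, growth factors or tissue handling, were mostly lower in running mice. Of 31 tested, 23 were lower and 8 higher, 6 and 1 without overlap (7.21% and 6.08% over all genes). At an unadjusted p under 0.05 there were 10 lower and 0 higher ones, beside 4.81% and 3.21% of all genes. The median was -0.47 in running and 0.18 in sedentary VPA mice, and without 1 library the first was -0.59 (without control replicate 3) to -0.26 (without running replicate 3). Without running replicate 3, 12 of 30 were higher. Zfp36, which promotes decay of inflammatory messenger RNAs (ENSMUSG00000044786.6, chr7:28376784-28380253 on the minus strand), had 72.1, 45.5 and 36.2 FPKM in controls, 53.4, 63.0 and 48.8 in sedentary VPA and 29.7, 19.4 and 31.7 in running mice, a difference of -0.88 (SE 0.28), adjusted p = 0.587. Junb, a subunit of the AP-1 factor, had 144.0, 111.8 and 102.7 FPKM in controls, 128.5, 149.95 and 151.2 in sedentary VPA and 101.0, 66.9 and 63.2 in running mice, a difference of -0.64 (SE 0.21). Egr1 and Fos were chosen after their values were seen. Egr1 had 867.3, 594.6 and 584.5 FPKM in controls, 808.2, 748.2 and 729.6 in sedentary VPA and 512.1, 460.0 and 434.5 in running mice, without overlap between running and control. Fos had 654.5, 465.6 and 495.8 FPKM in controls, 800.3, 713.5 and 882.2 in sedentary VPA and 608.0, 562.1 and 380.3 in running mice, with overlap and a difference of -0.072 that was 0.076 without control replicate 1 and 0.13 without running replicate 3. Control replicate 1 had the highest sum of the list among the controls, 3318, 2538 and 2439 FPKM over replicates 1 to 3, against 2583, 2355 and 1896 in running mice, and the median without it was -0.30.

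The promoter of Zfp36 is shown as that of the immediate early gene with the smallest p. In the 250 bases before its RefSeq start (chr7:28379229-28379478, minus strand, GRCm38.p6) a CArG box, the element bound by serum response factor, is set in capitals and begins 58 bases before the start. Such a box was found in 1.47% of the 32851 promoters, both strands being searched, and ACGTG was absent from this window. The window lay inside the gene span printed above, so the start used was not the outermost annotated start. The sequence is printed 5′ to 3′ on the gene's strand.
Zfp36: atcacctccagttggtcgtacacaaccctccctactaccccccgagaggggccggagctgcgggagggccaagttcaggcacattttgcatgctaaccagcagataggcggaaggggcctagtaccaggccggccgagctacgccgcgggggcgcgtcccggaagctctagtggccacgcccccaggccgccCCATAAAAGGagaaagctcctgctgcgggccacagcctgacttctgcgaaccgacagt

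Markers of blood vessels were lower in running mice. Of 25 endothelial markers 23 were lower, 6 without overlap and 0 higher without overlap (7.21% and 6.08% over all genes), with medians of -0.67 in running and -1.0 in sedentary VPA mice. An unadjusted p under 0.05 was reached by 7 lower and 0 higher ones (4.81% and 3.21% over all genes). Without running replicate 3 the median was -0.34, with 10 of 25 higher. Slc2a1, the glucose transporter of the blood-brain barrier, had 87.4, 88.7 and 78.1 FPKM in controls, 75.6, 57.1 and 39.5 in sedentary VPA and 57.0, 44.3 and 19.1 in running mice, and Sox18, an endothelial transcription factor, had 15.7, 10.8 and 10.05 in controls, 10.7, 5.52 and 8.82 in sedentary VPA and 0.475, 4.97 and 4.27 in running mice. Of 22 pericyte and smooth muscle markers 20 were lower, 5 without overlap (7.21% over all genes), with a median of -0.56, or -0.19 without running replicate 3, when 7 of 22 were higher. Among the 22, 5 lower and 0 higher ones had an unadjusted p under 0.05 (4.81% and 3.21% over all genes). In sedentary VPA mice the median of this list was -0.61. Tagln, a contractile gene of smooth muscle, had 14.1, 10.8 and 22.8 FPKM in controls and 3.48, 3.87 and 0 in running mice. Acta2, the smooth muscle actin, had 21.1, 20.6 and 25.7 in controls and 9.52, 8.09 and 0.419 in running mice, both genes being lowest in running replicate 3. The summed level of neither list separated the groups, being 1182, 2048 and 1579 in controls and 1137, 1383 and 830.2 in running mice for endothelial markers, and 1484, 2526 and 3075 in controls against 1992, 1850 and 962.6 in running mice for pericyte markers. Running replicate 3 also listed the most tested genes at 0 (1638), and whether this bears on these lists was not tested.

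Other cell types outside the stem cell lineage were represented unevenly. Of 15 tested microglia and macrophage markers 14 were lower in running mice, with a median of -1.38, but the summed FPKM was 591.2, 105.3 and 158.2 in controls and 81.5, 146.8 and 73.3 in running mice. Without control replicate 1 the median was -0.47, with 4 of 12 tested markers higher. Another 10 markers did not pass the filter, which a gene could pass through the control libraries alone. Cx3cr1, the fractalkine receptor of microglia, had 27.7, 3.84 and 6.64 FPKM in controls and 0.909, 6.15 and 0 in running mice, and the complement gene C1qb had 76.3, 7.62 and 11.8 in controls against 5.21, 9.02 and 0 in running mice. The erythroid list summed to 1497, 50.1 and 333.3 FPKM in controls and 49.6, 54.4 and 44.2 in running mice, the globin gene Hba-a1, which has a near-identical copy, having 457.8, 0 and 162.0 FPKM in controls and 0, 13.9 and 0.747 in running mice. Choroid plexus markers summed to 56.3, 126.4 and 71.0 in controls and 59.9, 445.8 and 701.5 in running mice. The high sums of running replicates 2 and 3 lay mostly in Ttr, the transthyretin gene, chosen after its values were seen, at 0.0880, 315.7 and 558.0 FPKM in running mice and 1.96, 48.6 and 25.1 in controls. Fibroblast markers were lower in 15 of 19 genes (median -0.23), with medians of -0.63 (without control replicate 1) to -0.14 (without running replicate 3) on leaving out 1 library. Sedentary VPA mice had a median of -0.78 for this list. Dcn, a matrix proteoglycan, had 4.78, 28.2 and 16.1 FPKM in controls and 1.77, 0.0451 and 3.63 in running mice. Islr, a secreted protein gene of the same list, went the other way at 15.5, 25.5 and 17.7 FPKM in controls, 6.43, 7.995 and 3.69 in sedentary VPA and 39.9, 28.5 and 57.6 in running mice. Of the ependymal list 4 genes were tested, with a median of -0.30 that was above 0 without control replicate 3, and no lymphocyte or granulocyte marker passed the filter. What these cell types contribute to the differences of other genes was not tested.

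**Figure D5:**
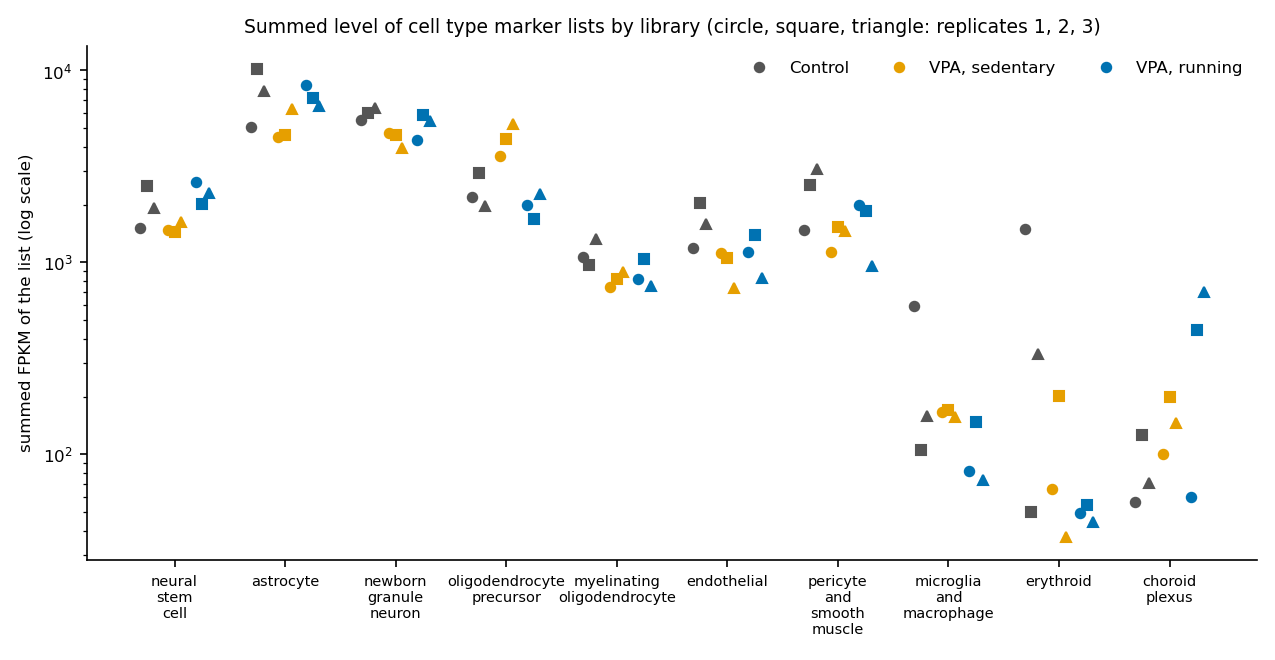
Summed FPKM (log axis) of 10 cell type marker lists in each library of control, sedentary VPA and running VPA mice, the symbols marking replicates 1, 2 and 3. Control replicate 1 stands out in the microglia and erythroid lists, running replicates 2 and 3 in the choroid plexus list, and the sedentary VPA group in the oligodendrocyte precursor list.

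Neuronal lists held genes on both sides of control. Of 20 mature neuron markers 12 were lower with a median of -0.17, or -0.28 (without control replicate 2) to -0.057 (without running replicate 2) on leaving out 1 library. Syn1, a protein of synaptic vesicles, had 29.4, 58.9 and 34.0 FPKM in controls, 35.6, 32.03 and 31.0 in sedentary VPA and 15.5, 22.4 and 11.2 in running mice, a difference of -1.25 (SE 0.31). Eno2, the neuronal enolase, had 13.8, 11.0 and 18.6 FPKM in controls and 13.2, 6.00 and 0 in running mice, with overlap. Synaptic vesicle genes were lower in 17 of 23 (median -0.15, -0.065 without running replicate 1) and synaptic adhesion genes in 12 of 22 (median -0.11). Leaving out 1 library gave the adhesion genes medians of -0.23 (without running replicate 3) to -0.046 (without running replicate 1). Nrxn2, a presynaptic adhesion molecule, had 71.7, 78.2 and 52.0 FPKM in controls, 81.1, 93.4 and 110.7 in sedentary VPA and 46.8, 38.8 and 45.6 in running mice, so that no groups overlapped and running and sedentary VPA mice lay on opposite sides of control. Shank1, a postsynaptic scaffold, had 14.4, 10.2 and 11.3 FPKM in controls and 6.00, 7.55 and 5.16 in running mice. Kcnk1, a potassium channel, had 46.1, 35.2 and 59.8 FPKM in controls and 26.7, 19.9 and 17.9 in running mice, a difference of -1.08 (SE 0.27). Of 11 tested GABAergic genes 9 were higher (median 0.27), 2 without overlap, and Calb2 was lower without overlap, beside 6.08% and 7.21% of all genes. Another 9 genes of the list did not pass the filter. Leaving out 1 library gave medians of 0.18 (without running replicate 2) to 0.55 (without running replicate 3), with 6 of 11 higher without running replicate 1. The median of sedentary VPA minus control was larger, at 0.80. The summed level overlapped, at 536.5, 449.0 and 487.7 FPKM in controls and 400.2, 500.1 and 421.3 in running mice. The interneuron transcription factor Dlx5 had 3.16, 0 and 5.48 FPKM in controls, 5.11, 10.8 and 2.86 in sedentary VPA and 11.8, 12.5 and 15.9 in running mice. The medians of ion channel genes (-0.0065, 30 tested) and of glutamate and GABA receptor genes (-0.12, 25 tested) were above 0 without running replicate 2.

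Ribosomal protein genes were lower in 66 of 76 cases, 13 without overlap and 1 higher without overlap, beside 7.21% and 6.08% of all genes. At an unadjusted p under 0.05 there were 11 lower and 0 higher ones, beside 4.81% and 3.21% of all genes. The median was -0.23 in running and -0.37 in sedentary VPA mice, and without 1 library the first was -0.35 (without control replicate 1) to -0.17 (without control replicate 3). Without running replicate 3, 15 of 76 were higher. Rps3 was below every control library in both VPA groups, at 280.0, 425.7 and 392.8 FPKM in controls, 268.4, 226.1 and 214.3 in sedentary VPA and 228.1, 230.8 and 215.9 in running mice. Summed FPKM of the list was 17047, 22590 and 24367 in controls, 15323, 16009 and 16334 in sedentary VPA and 16034, 19087 and 17928 in running mice, so control replicate 1 lay among the running libraries.

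Genes of energy metabolism also lay on both sides of control. Respiratory chain genes were lower in 33 of 47 (median -0.17), with 2 above and 1, Cox8a, below control without overlap, beside 6.08% and 7.21% of all genes. Leaving out 1 library gave medians of -0.29 (without control replicate 1) to -0.071 (without control replicate 3). Atp5o of the ATP synthase had 122.9, 172.4 and 125.1 FPKM in controls and 142.5, 210.3 and 285.9 in running mice, with overlap. Genes of glycolysis and hypoxia had a median of -0.16, with 3 higher and 5 lower without overlap (6.08% and 7.21% over all genes), and leaving out 1 library gave medians of -0.35 (without control replicate 1) to 0.017 (without control replicate 2). Besides Ankrd37, the list held Pfkl, a phosphofructokinase, at 24.1, 28.6 and 21.2 FPKM in controls, 13.8, 21.7 and 17.1 in sedentary VPA and 12.2, 15.7 and 8.17 in running mice. Cholesterol genes were higher in 16 of 25 (median 0.11), 5 without overlap and 0 lower without overlap, beside 6.08% and 7.21% of all genes. Leaving out 1 library gave medians of 0.086 (without control replicate 1) to 0.27 (without running replicate 3). Insig1, a regulator of sterol synthesis, had 43.4, 25.7 and 39.0 FPKM in controls and 52.8, 63.8 and 64.3 in running mice, a difference of 0.76 (SE 0.22), and the cholesterol exporter Abca1 had 23.1, 16.2 and 18.1 in controls against 31.7, 24.5 and 27.1 in running mice.

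Among signalling lists, Notch genes were split, with 11 of 21 higher and a median of 0.046, or -0.07 (without running replicate 1) to 0.18 (without running replicate 3) on leaving out 1 library. Nrarp, a feedback inhibitor and target of Notch, had 27.9, 38.6 and 29.3 FPKM in controls, 27.6, 37.4 and 35.5 in sedentary VPA and 44.4, 55.2 and 57.3 in running mice, a difference of 0.70 (SE 0.22), adjusted p = 0.587. Hedgehog genes had a median of 0.23 (-0.048 without running replicate 1), with the inhibitor Sufu at 22.6, 19.6 and 19.4 FPKM in controls and 13.7, 12.1 and 10.7 in running mice and the co-receptor Cdon at 9.12, 9.52 and 8.93 in controls against 12.9, 19.3 and 15.9 in running mice. The Wnt list (22 tested, 14 lower and 8 higher) had a median of -0.14. Leaving out 1 library gave medians of -0.36 (without control replicate 1) to 0.015 (without running replicate 2). Nkd1, its member with the smallest p, had 7.84, 9.53 and 10.03 FPKM in controls and 6.11, 0.552 and 3.82 in running mice. Sedentary VPA libraries had 6.49, 7.41 and 11.53 FPKM, and the difference of running minus control was -1.42. Dkk3, a secreted protein of the Dickkopf family, went the other way. It had 28.9, 40.004 and 36.7 FPKM in controls, 23.2, 15.7 and 16.5 in sedentary VPA and 48.6, 45.1 and 64.7 in running mice. The BMP and Id list had a median of -0.10 over 16 genes, and the growth factor list -0.14 over 19, which turned to above 0 with array quality weights. In the latter, Fndc5, the precursor of irisin, had 6.51, 5.73 and 3.67 FPKM in controls, 8.73, 4.71 and 3.31 in sedentary VPA and 2.94, 0 and 0 in running mice.

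Histone deacetylases, the enzymes that VPA inhibits, had a median difference of -0.0029 over 13 genes, with 2 higher and 1 lower without overlap, beside 6.08% and 7.21% of all genes. Leaving out 1 library gave medians of -0.15 (without running replicate 3) to 0.31 (without running replicate 2). Hdac1 had 21.7, 17.4 and 18.9 FPKM in controls and 26.5, 29.1 and 24.0 in running mice, and Hdac5 had 51.9, 50.3 and 55.3 in controls against 40.4, 49.3 and 39.9 in running mice. Of 28 other chromatin regulators 11 were higher (median -0.032, above 0 once small RNA genes were removed), and Chd7, a chromatin remodeller of neural stem cells, had 27.9, 24.7 and 23.3 FPKM in controls, 24.2, 24.9 and 26.3 in sedentary VPA and 29.9, 42.5 and 39.0 in running mice. Imprinted genes had a median of -0.054 over 16 genes, above 0 after quantile normalization and ranging from -0.17 (without control replicate 1) to 0.029 (without running replicate 2) on leaving out 1 library.

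Stress and matrix lists completed the comparison. Endoplasmic reticulum chaperones were lower in 13 of 19 (median -0.27), and leaving out 1 library gave medians of -0.33 (without running replicate 3) to -0.037 (without running replicate 1). Calr, a calcium-binding chaperone, had 368.6, 465.0 and 398.3 FPKM in controls and 256.0, 240.7 and 394.8 in running mice. Heat shock genes had a median of -0.054 over 16, or -0.086 (without running replicate 3) to 0.017 (without control replicate 2) on leaving out 1 library, and Hspe1, the mitochondrial cochaperonin, had 82.6, 76.6 and 77.9 FPKM in controls and 70.7, 202.6 and 244.2 in running mice, with replicate 1 below every control. Thioredoxin and antioxidant genes had a median of -0.051, above 0 after quantile normalization, with superoxide dismutase Sod1 at 173.5, 201.2 and 197.8 FPKM in controls and 261.2, 362.6 and 245.9 in running mice. Metallothionein and zinc genes had a median of 0.06, below 0 without running replicate 1. Collagen and basement membrane genes were lower in 19 of 23 (median -0.48, -0.27 without running replicate 3), and their median was -0.53 in sedentary VPA mice. Col12a1 had 10.7, 3.90 and 8.98 FPKM in controls and 1.02, 1.65 and 3.62 in running mice. The perineuronal matrix list had a median of -0.14, or -0.18 (without running replicate 1) to 0.075 (without control replicate 2) on leaving out 1 library, and the interferon and antigen presentation list one of -0.34, or 0.10 without running replicate 3. In sedentary VPA mice these medians were 0.45 and -0.30.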

How the data were processed

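Expression was measured by sequencing of polyadenylated RNA from sorted EGFP-positive dentate gyrus cells on an Illumina HiSeq instrument, per the labels. The submitters' processing notes name mm10 as the genome, with TopHat and Bowtie2 as aligners and Cufflinks and Cuffdiff for quantification, each without a version. The authors deposited 1 FPKM value per gene symbol and library, per the file headers of the 12-week tables, and 0 sample columns were left unmapped. Of the symbols, 23185 matched a single GENCODE vM21 gene. No strand was stated, so reads of antisense, overlapping or closely related genes may be mixed.

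Values were analysed as log2(FPKM + 1), with a gene kept at 1 FPKM or more in 3 or more of the 6 libraries compared. One model of group means over the 9 libraries of 12 weeks was fitted in R 4.3.3 with limma 3.58.1 (lmFit, contrasts.fit, eBayes with an intensity trend, 6 residual degrees of freedom), two-sided, with Benjamini-Hochberg adjustment over 13231 genes and a threshold of 0.05. The fit was tested on simulated data. With under 5 calls per direction, the rule for named genes took, in each, the 15 of smallest p whose libraries did not overlap and whose higher group averaged 5 FPKM or more, without small RNA genes and numbered gene models. The 2 members of each list with the smallest p, and Nes, Sox2, Gfap and Cxcr4, were added. Lists of marker and pathway genes share members (Tnr, Cspg4, Sox2, Calb2 and others) and were described by counts and medians without a test. The genes, lists and rules were chosen with earlier results of these data known. Libraries of the other ages were not used here. Alternatives changed 1 choice at a time, except for 1 added after the data were seen that combined the block with the 6 libraries: the pseudocount, the filter, the scaling, array quality weights, the trend, the libraries fitted, a block for replicate number and each library left out.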

Additional observations from a re-analysis of the deposited data

How the results depend on the processing

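Against the 0 genes that passed adjustment in each direction, leaving out 1 library gave 0 to 2 higher and 0 to 20 lower genes. Without control replicate 3, 1 small RNA gene passed, Mir719, listed at 0, 0 and 820.4 FPKM in controls and at 664.7, 2285 and 1957 in running libraries. Without running replicate 1, Hspe1 and Lsm2 passed as higher, and 20 genes as lower. Of these, Lsm7 was at 7.75, 1.62 and 0 FPKM in running replicates 1, 2 and 3 and Gdf11 at 8.70, 0 and 0, against 11.3, 10.4 and 9.51 in controls. The alternatives in pseudocount, filter, scaling, weights, trend, libraries fitted and block each gave 0 in both directions, with a smallest adjusted p of 0.0703 (pseudocount 0.1) to 0.818 and 679 to 1224 genes at an unadjusted p under 0.05. Same-numbered control and running libraries did not deviate together (correlations of -0.035, 0.0065 and -0.033), so the numbers are not taken as pairs. The replicate block left the count at 0 genes in both directions, with 1000 at an unadjusted p under 0.05, and the replicate block with only the 6 libraries, added after the data were seen, gave 0 and 679. None of the 113 genes named by rule changed sign in an alternative that kept the gene. Most of these genes were chosen by small p in these same data. A gene without overlap also cannot change sign when 1 library is left out, so this stability was largely fixed in advance. Of 7 genes described above after their values were seen, Fos changed sign with array quality weights (0.048) and ranged from -0.204 to 0.134 on leaving out 1 library, and Dcx ranged from -0.176 to 0.022. The medians of 18 of 43 lists changed sign in at least 1 setting: astrocyte, ependymal, D cyclin and CDK inhibitor, growth factor, Notch, Hedgehog, Wnt, histone deacetylase, chromatin regulator, glycolysis and hypoxia, heat shock, metallothionein, thioredoxin, interferon, receptor, ion channel, perineuronal matrix and imprinted. With 3 libraries a group and unknown depth, absence of a difference cannot be read from these values.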
